A study of Mus musculus with 20 samples.

Results

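The subject is a set of 40 genes that handle glutathione and reactive oxygen in the mouse lens: enzymes of glutathione synthesis, glutathione peroxidases and transferases, peroxiredoxins, thioredoxins, dismutases, catalase, and the Nrf2 control genes. They were chosen by gene name, not by a measured value. Of the 40 genes, 36 had a probe set assigned to that gene alone, among 18193 such genes on the array, and 35 of these passed the filter on low values, among 11859 genes tested. Sod3, the secreted dismutase, was the member on the array that did not pass: it lay above the array median in 0 of 20 arrays. No value is given for Prdx1, whose 5 probe sets all name another gene as well, or for Prdx5, Prdx6 and Akr1b3, which the annotation used here pairs with no probe set.

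RNA was measured on Affymetrix mouse arrays in 4 groups of 5 arrays each, and each array held both lenses of a mouse. Triple knockout (TKO) lenses carried Cry-Cre with null alleles of E2F1 and E2F2 and a floxed E2F3 (E2F3f/f), at birth (P0) or at the embryonic stage E17.5, and control lenses of both stages were E2F2-/-. All 4 groups therefore lacked E2F2, none was wild type, and the Cre transgene, named for a crystallin promoter, was present in the TKO groups only. The E2F proteins are transcription factors that act on genes of the cell cycle and of cell death.

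Glutathione is a small thiol that the lens holds at high concentration, and its loss from the lens is a known feature of cataract. Glutathione peroxidases and peroxiredoxins remove peroxides, transferases couple glutathione to reactive compounds, and glutathione reductase and thioredoxin reductases return the oxidised thiols with NADPH. Nrf2, the product of Nfe2l2, binds antioxidant response elements with small Maf proteins and is held back by Keap1.

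The labels call the cells epithelial, but whole lenses were dissected, and all 13 lens fibre markers measured lay above the array median in every array. Array medians lay between 5.05 and 5.25 on the log2 scale. E2f1 read higher in TKO lenses, with a mean of 7.79 ± 0.14 against 7.34 ± 0.14 in control lenses at P0 (SD, n = 5 each) and a limma adjusted p of 0.00263. E2f2 and E2f3 passed the test at neither stage. Whether these probe sets lie in the deleted parts is not given, so they do not check the genotype. Of the TKO E17.5 arrays, numbers 24 and 27 resembled the E17.5 controls (mean r of 0.990 and 0.993) more than the other TKO E17.5 arrays (0.985 and 0.988), and the E17.5 values are therefore given array by array. All levels below are log2 values as deposited, all differences are log2 differences with the standard error of the limma fit, and a gene is called where its p, adjusted by the Benjamini-Hochberg method over all 11859 genes, is below 0.05.

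The promoter windows that hold the core of the antioxidant response element are shown for 3 members that were called at P0, Mgst1 and Srxn1 (higher) and Gstm5 (lower). Sequences are from RefSeq (GRCm38.p6), on the strand of the gene, and run from 250 bases before to 50 bases after the start site. The core TGACNNNGC, read on both strands, is in capitals, and letters of an AP-1 site can lie within it. The windows are at chr6:138140277-138140576 (plus strand) for Mgst1, chr2:152105274-152105573 (plus strand) for Srxn1 and chr3:107895604-107895903 (plus strand) for Gstm5.
Mgst1: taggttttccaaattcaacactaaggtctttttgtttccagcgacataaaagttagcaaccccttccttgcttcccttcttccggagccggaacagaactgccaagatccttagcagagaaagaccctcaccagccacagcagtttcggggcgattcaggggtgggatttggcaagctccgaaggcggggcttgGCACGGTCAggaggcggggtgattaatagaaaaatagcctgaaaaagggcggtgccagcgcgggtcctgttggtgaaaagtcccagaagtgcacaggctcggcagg
Srxn1: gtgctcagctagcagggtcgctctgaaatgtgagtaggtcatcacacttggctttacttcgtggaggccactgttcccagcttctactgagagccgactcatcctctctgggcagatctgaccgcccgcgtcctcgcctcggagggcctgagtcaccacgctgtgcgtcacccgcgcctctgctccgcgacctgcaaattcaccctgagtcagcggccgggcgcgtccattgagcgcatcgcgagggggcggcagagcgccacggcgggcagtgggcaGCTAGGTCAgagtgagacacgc
Gstm5: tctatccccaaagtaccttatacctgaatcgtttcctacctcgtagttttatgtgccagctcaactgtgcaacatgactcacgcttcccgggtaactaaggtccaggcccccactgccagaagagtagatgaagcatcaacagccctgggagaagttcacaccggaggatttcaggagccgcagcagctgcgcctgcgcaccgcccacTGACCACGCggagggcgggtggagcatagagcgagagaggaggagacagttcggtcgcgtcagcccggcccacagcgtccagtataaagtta
Windows were found for 32 of the 40 genes, 42 windows in all, and 8 of them (19.05%) held the core, against 12.4% of all 32851 windows. The 8 belong to Nfe2l2, Srxn1, Gstm5, Gclm, Prdx1, Mgst1, Txnrd1 and Sod1, of which 3 were called higher and 1 lower at P0, 3 were not called and Prdx1 was not measured. The E2F motifs TTTCGCGC and TTTGGCGC, read on both strands, were in 0 of the 42 windows, against 0.323% and 0.514% of all windows. A match is only a description of these letters.

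At P0, 20 of the 35 tested genes were called between TKO and control lenses, 15 higher and 5 lower in TKO. The background was high at this stage: 39.6% of all genes tested were called (20.2% higher, 19.4% lower), against 57.1% of the antioxidant genes (42.9% higher, 14.3% lower). A stricter filter, above the 75th percentile of the array in at least 5 arrays, tested 30 of these genes. With it 15 of them (50%) were called, near the 49.4% of all 7302 genes it tested. The median log2 difference was 0.14 over the 35 genes and -0.01 over all genes tested. In 11 genes every TKO array lay above every control array and in 4 every TKO array lay below, where 13.2% and 12.7% of all genes did so. The genes that rose included peroxidases, several transferases, glutaredoxin and thioredoxin, and those that fell were catalase, 2 Mu-class transferases, Keap1 and Msra. For each group of these genes at P0 below, the shares of all genes (20.2% higher, 19.4% lower) are the background.

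**Figure D1:**
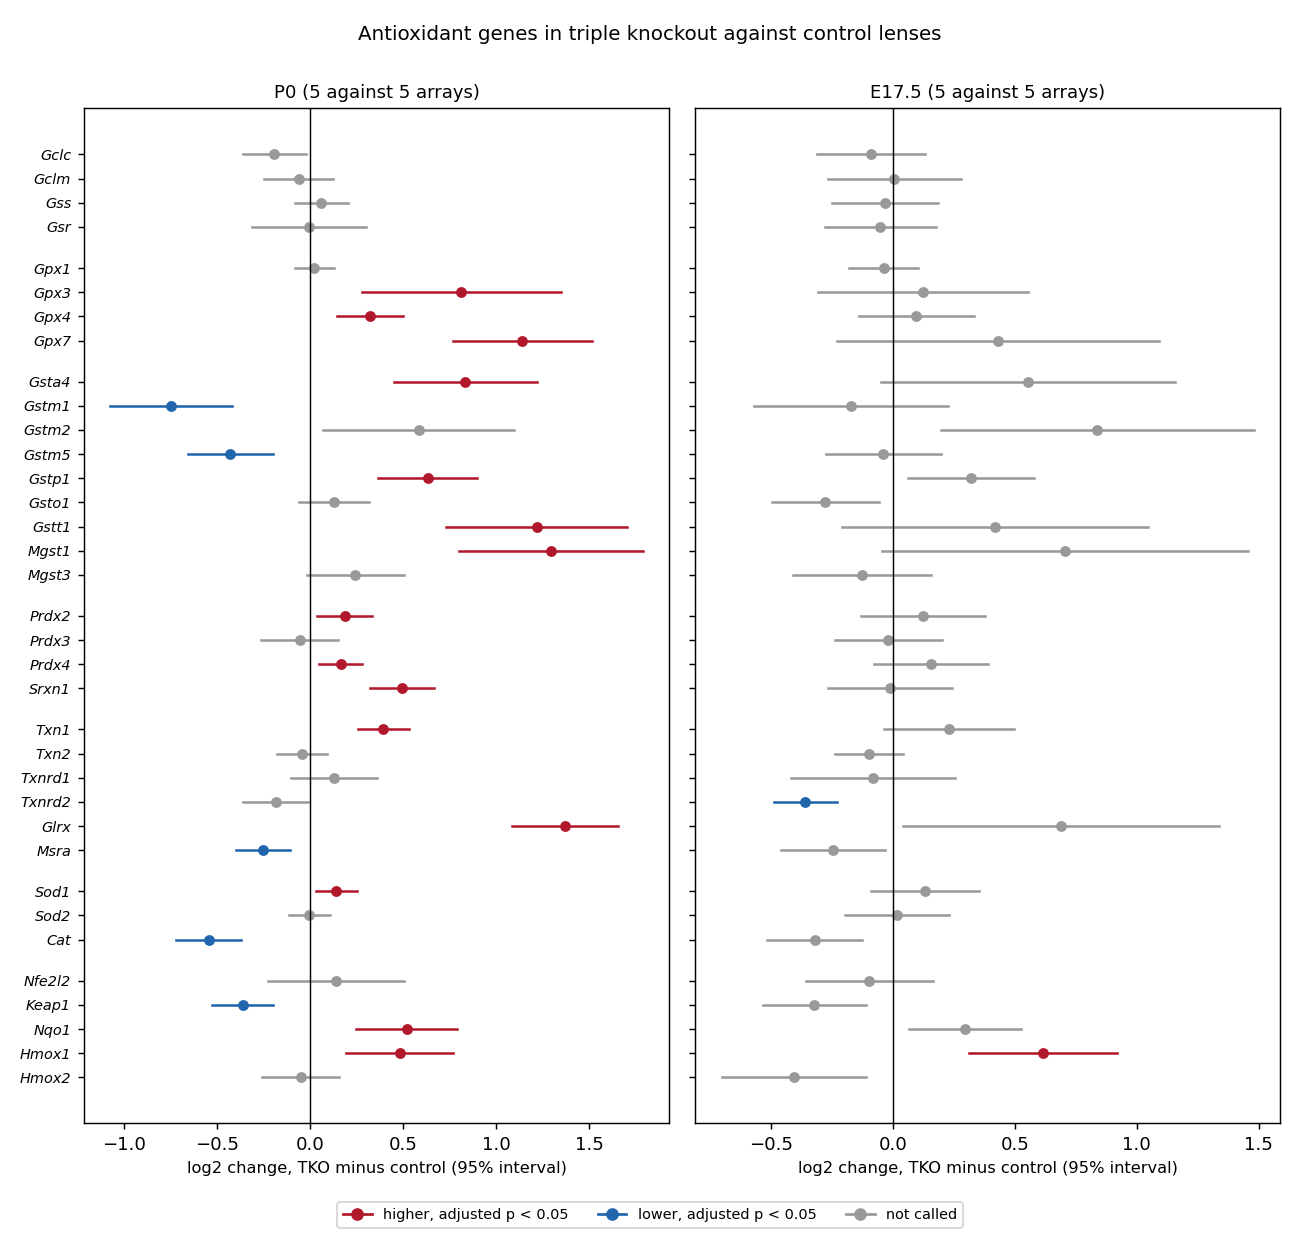
Log2 difference between TKO and control lenses (x axis, with the 95% interval of the limma fit) for the 35 tested genes (y axis, grouped by role), at P0 on the left and E17.5 on the right, 5 arrays against 5. At P0, 15 genes are called higher (red) and 5 lower (blue), and at E17.5 1 is called higher and 1 lower.

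Glutathione synthesis and recycling did not pass the test at P0 in any of 4 genes. Gclc, the catalytic subunit of the rate-limiting enzyme, averaged 8.85 ± 0.09 in TKO and 9.05 ± 0.15 in control lenses (SD, n = 5 each), a difference of -0.19 ± 0.08 (limma adjusted p = 0.0708). Its modifier Gclm differed by -0.06 ± 0.09, glutathione synthetase Gss by 0.06 ± 0.07 and glutathione reductase Gsr by -0.01 ± 0.14. The 95% intervals were -0.25 to 0.13 for Gclm, -0.08 to 0.21 for Gss and -0.31 to 0.30 for Gsr. The other probe set of each gene, above the median in all 20 arrays, differed by 0.02 (Gclc), -0.16 (Gclm), 0.24 (Gss) and 0.32 (Gsr). Gss was called higher with the mean of its probe sets, and with its highest-variance probe set. Gsr was called higher with its highest-variance probe set (limma adjusted p = 0.0137).

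Of the 4 glutathione peroxidases, 3 rose at P0. Gpx7, a peroxidase of the endoplasmic reticulum, read 7.16, 7.32, 7.09, 6.34 and 6.66 in TKO lenses, against 5.66, 5.98, 5.58, 5.77 and 5.87 in control lenses. The groups did not overlap, TKO replicate 21 was the lowest of its group, and the difference was 1.14 ± 0.17 (limma adjusted p = 0.00071). Gpx3, the secreted peroxidase, read 8.62, 8.07, 8.29, 7.19 and 7.32 in TKO lenses, against 7.29, 7.11, 7.09, 6.97 and 6.98 in control lenses. TKO replicate 21 lay within the control range, and the difference was 0.81 ± 0.24 (limma adjusted p = 0.0219), a call lost without TKO replicate 18 or 19, and with retina markers as a covariate, where the difference was 0.98 ± 0.43. Gpx4, which reduces lipid peroxides in membranes, read 11.70, 11.92, 11.68, 11.53 and 11.46 in TKO lenses, against 11.37, 11.33, 11.31, 11.38 and 11.28 in control lenses. There was no overlap, and the difference was 0.32 ± 0.08 (limma adjusted p = 0.00927). Gpx1, the cytosolic peroxidase, differed by 0.03 ± 0.05, with a 95% interval of -0.08 to 0.13.

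Of 9 glutathione transferases, 4 rose and 2 fell at P0. Mgst1, a membrane-bound transferase, read 9.96, 9.70, 9.88, 8.70 and 9.39 in TKO lenses, against 8.61, 7.99, 8.45, 8.005 and 8.10 in control lenses. The lowest TKO array, replicate 21, lay just above the highest control, and the difference was 1.30 ± 0.22 (limma adjusted p = 0.00152). Gstt1, a Theta-class enzyme, read 6.82, 7.05, 6.89, 5.95 and 6.43 in TKO lenses, against 5.97, 5.39, 5.31, 4.95 and 5.43 in control lenses. TKO replicate 21 and control replicate 1 overlapped, and the difference was 1.22 ± 0.22 (limma adjusted p = 0.00193). Gsta4, which clears the lipid aldehyde 4-hydroxynonenal, read 8.20, 8.82, 8.31, 7.95 and 8.44 in TKO lenses, against 6.96, 7.63, 7.76, 7.60 and 7.60 in control lenses. Each TKO array lay above the control range, and the difference was 0.84 ± 0.18 (limma adjusted p = 0.00397). Gstp1, the Pi-class enzyme, read 13.90, 13.99, 14.05, 13.38 and 13.70 in TKO lenses, against 13.25, 13.28, 13.25, 13.02 and 13.05 in control lenses. All TKO arrays were above all controls, by 0.63 ± 0.12 on average (limma adjusted p = 0.00245). Gsto1, Mgst3 and Gstm2 did not pass, with differences of 0.13 ± 0.09, 0.24 ± 0.12 and 0.58 ± 0.23.

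**Figure D2:**
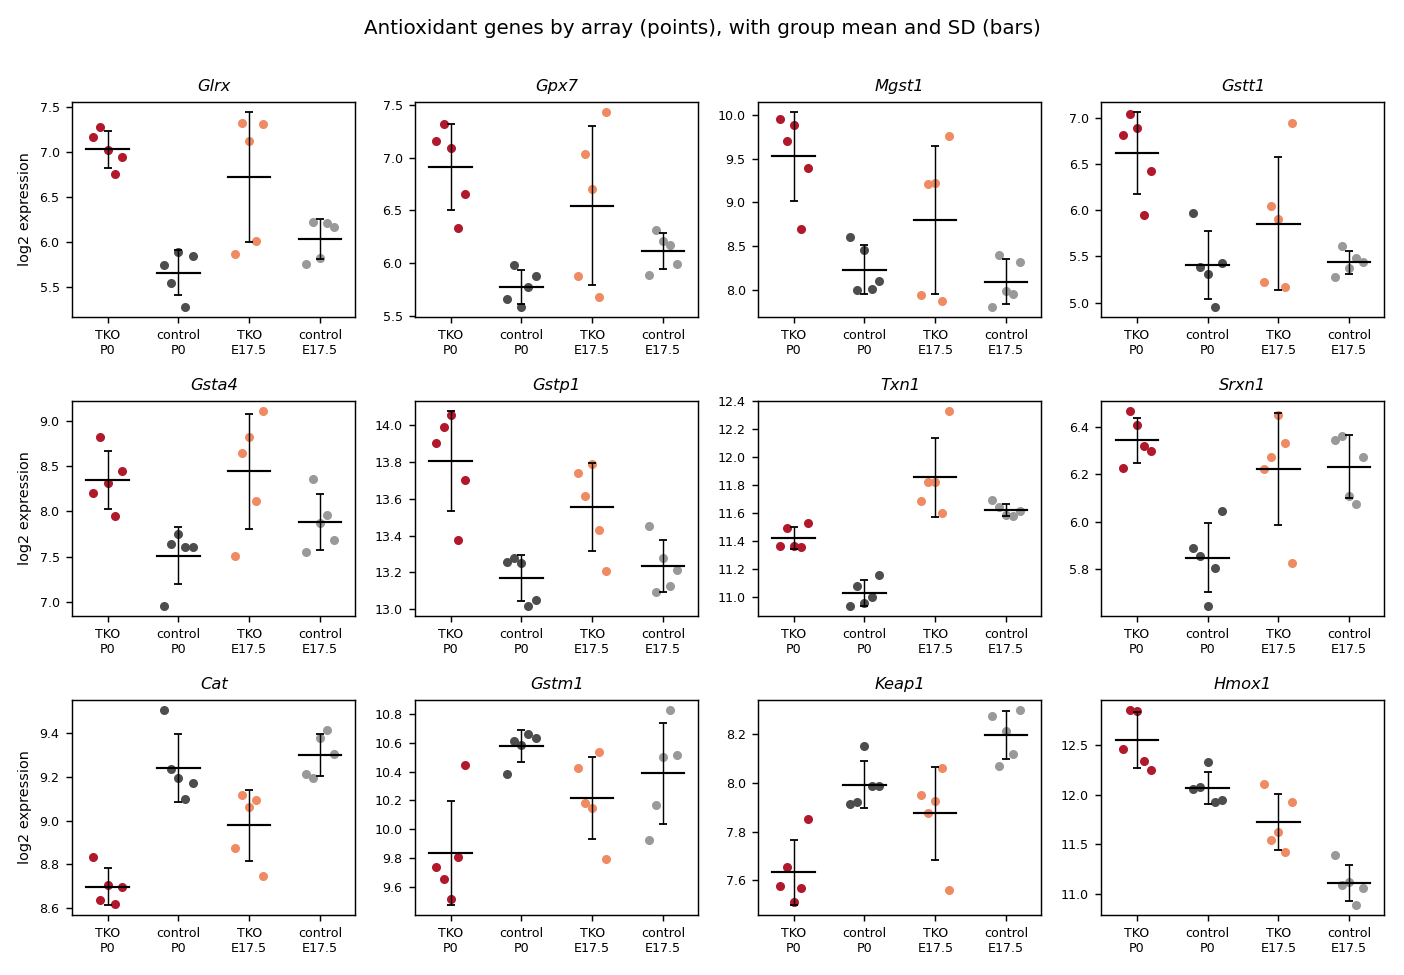
Log2 level (y axis) of 12 antioxidant genes in each array (points), with group mean and SD (bars, n = 5), for TKO P0, control P0, TKO E17.5 and control E17.5 lenses. Glrx, Gpx7, Mgst1, Gstt1 and Gsta4 spread widely in TKO E17.5 lenses, while at P0 the TKO arrays of these genes lie above the control arrays except for an overlap in Gstt1.

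The Mu-class transferases, a cluster of similar genes on chromosome 3, mostly fell. Gstm1 read 9.74, 9.65, 9.52, 9.81 and 10.45 in TKO P0 lenses, against 10.38, 10.62, 10.58, 10.66 and 10.63 in control P0 lenses. TKO replicate 22 overlapped the lowest control, and the difference was -0.74 ± 0.15 (limma adjusted p = 0.00308). The other 3 Gstm1 probe sets differed by -0.41 to -0.80. Gstm5 read 11.57, 11.20, 11.32, 11.80 and 11.55 in TKO lenses, against 11.77, 12.01, 11.91, 11.99 and 11.90 in control lenses. Only TKO replicate 21 reached the control range, and the difference was -0.43 ± 0.10 (limma adjusted p = 0.00854). In the same cluster Gstm7, Gstm6 and Gstm3, which are not among the 40 genes, fell by 0.75, 1.17 and 0.25, while Gstm4 differed by -0.15 ± 0.07 and was not called. Gstm2 pointed the other way but did not pass, with 8.61, 8.21, 8.37, 7.06 and 8.10 in TKO lenses, against 7.33, 7.56, 7.41, 7.49 and 7.64 in control lenses. Its TKO replicate 21 was below every control. These genes are alike in sequence, and how far each probe set reads its neighbours is uncertain.

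**Figure D3:**
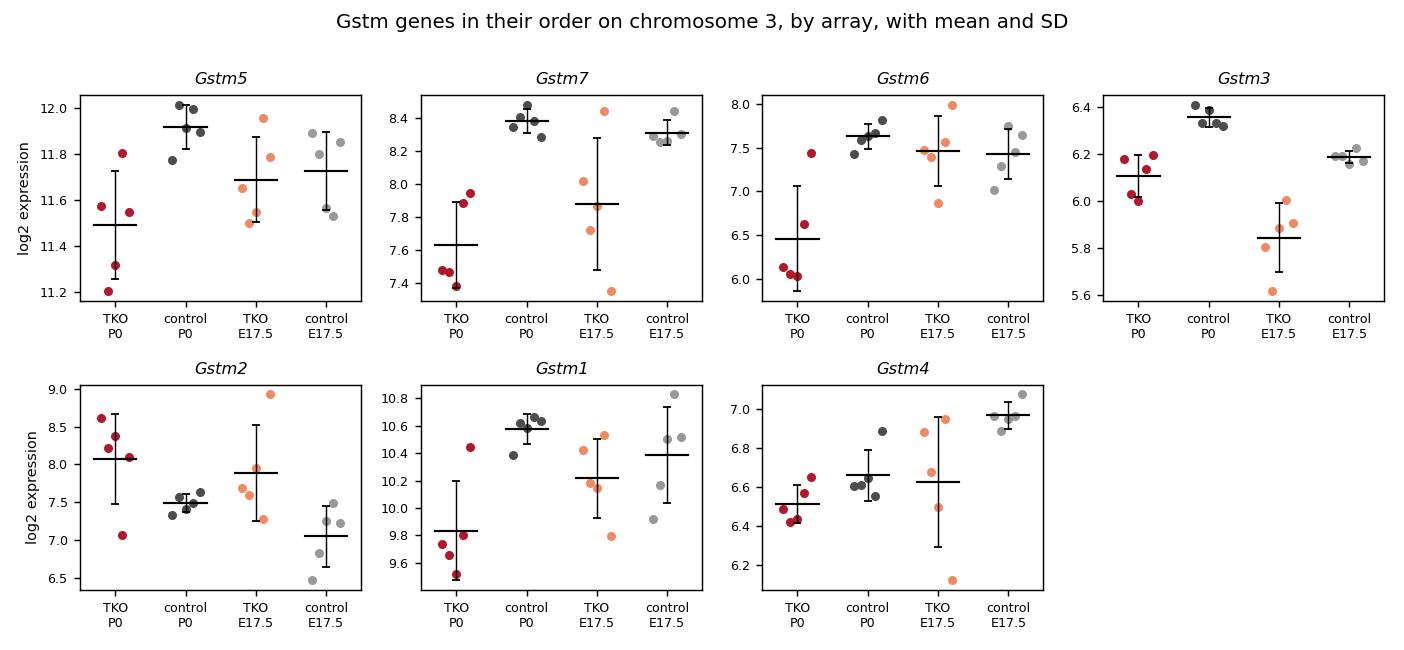
Log2 level (y axis) of the 7 Gstm genes in their order on chromosome 3, in each array (points), with group mean and SD (bars, n = 5), for TKO P0, control P0, TKO E17.5 and control E17.5 lenses. At P0 Gstm5, Gstm7, Gstm6, Gstm3 and Gstm1 were called lower in TKO, and Gstm2 and Gstm4 were not called.

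Among 4 measured peroxiredoxin and sulfiredoxin genes, 3 rose at P0. Srxn1, the sulfiredoxin that repairs over-oxidised peroxiredoxins, read 6.23, 6.47, 6.41, 6.32 and 6.30 in TKO lenses, against 5.89, 5.86, 5.65, 5.81 and 6.05 in control lenses. Every TKO array lay apart from every control, and the difference was 0.49 ± 0.08 (limma adjusted p = 0.000896). Its 3 other probe sets differed by 0.08, 0.15 and 0.40, the last from a probe set that lay above the array median in 0 of 20 arrays. Prdx4, of the endoplasmic reticulum, rose by 0.17 ± 0.05 (limma adjusted p = 0.027), with all TKO arrays above all controls. Prdx2, the cytosolic enzyme, rose by 0.19 ± 0.07 (limma adjusted p = 0.0466), with control replicate 8 within the TKO range, and its other probe set differed by -0.02. These calls were lost in 9 of 20 alternatives for Prdx4 and in 15 of 20 for Prdx2. Mitochondrial Prdx3 differed by -0.06 ± 0.09.

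In the thioredoxin group, 2 of 6 genes (33.3%) rose and 1 (16.7%) fell. Glrx, the glutaredoxin that removes glutathione from protein thiols, read 7.17, 7.28, 7.02, 6.75 and 6.94 in TKO P0 lenses, against 5.74, 5.55, 5.89, 5.28 and 5.84 in control P0 lenses. The groups were far apart, with a difference of 1.37 ± 0.13 (limma adjusted p = 0.000105) and 1.204 in its other probe set. Txn1, cytosolic thioredoxin, read 11.36, 11.49, 11.36, 11.36 and 11.53 in TKO lenses, against 10.94, 11.08, 10.95, 10.998 and 11.15 in control lenses. The ranges were separate, and the difference was 0.40 ± 0.06 (limma adjusted p = 0.000938), against -0.07 in a dimmer probe set of the same gene. Msra, which repairs oxidised methionine, fell by 0.25 ± 0.07 (limma adjusted p = 0.0126). Its TKO arrays read 8.08 to 8.37 and its control arrays 8.46 to 8.50. Mitochondrial Txn2 and the reductases Txnrd1 and Txnrd2 did not pass, with differences of -0.04 ± 0.06, 0.13 ± 0.10 and -0.18 ± 0.08, although a second Txnrd1 probe set above the median in all arrays differed by 0.55.

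Catalase fell and cytosolic dismutase rose slightly. Cat, the peroxisomal enzyme that splits hydrogen peroxide, read 8.83, 8.64, 8.71, 8.62 and 8.70 in TKO P0 lenses, against 9.51, 9.23, 9.19, 9.10 and 9.17 in control P0 lenses. TKO and control arrays did not overlap, and the difference was -0.54 ± 0.08 (limma adjusted p = 0.000642), with -0.38 in the other probe set. Sod1, the copper-zinc dismutase, differed by 0.14 ± 0.05 (limma adjusted p = 0.0425), but by 0.01 and -0.15 in its 2 other probe sets above the median in all arrays, and the call was lost in 14 of 19 alternatives. Mitochondrial Sod2 averaged 10.91 ± 0.05 in TKO and 10.92 ± 0.05 in control lenses (SD, n = 5 each), with a 95% interval of the difference of -0.11 to 0.11.

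Of the 5 tested Nrf2 control and stress genes, Nqo1 and Hmox1 rose and Keap1 fell at P0. Nqo1, a quinone reductase and Nrf2 target, read 6.32, 5.73, 6.02, 5.56 and 5.88 in TKO lenses, against 5.50, 5.33, 5.32, 5.48 and 5.28 in control lenses. The groups lay close but apart, with a difference of 0.52 ± 0.12 (limma adjusted p = 0.00714). Hmox1, the inducible haem oxygenase, read 12.46, 12.86, 12.85, 12.34 and 12.25 in TKO lenses, against 12.06, 12.08, 12.33, 11.93 and 11.95 in control lenses. Control replicate 6 lay within the TKO range, and the difference was 0.48 ± 0.13 (limma adjusted p = 0.0134). Keap1, which targets Nrf2 for degradation, read 7.57, 7.66, 7.51, 7.57 and 7.85 in TKO lenses, against 7.92, 7.92, 8.15, 7.99 and 7.99 in control lenses. The groups did not overlap, with a difference of -0.36 ± 0.08 (limma adjusted p = 0.00382), but the other Keap1 probe set differed by 0.01. Nfe2l2 itself averaged 7.63 ± 0.41 in TKO and 7.49 ± 0.10 in control lenses (SD, n = 5 each) and was not called (0.14 ± 0.17). The constitutive Hmox2 differed by -0.05 ± 0.09.

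Markers of other eye tissues also differed at P0. Of the 20 retina markers 16 were on the array and 14 were tested, and 12 of these were higher in TKO. The log2 of their summed level was 10.6 to 11.9 in TKO and 8.87 to 10.3 in control lenses (exact permutation test, two-sided, p = 0.00794, adjusted p = 0.0317 over 20 such tests). Of the 16, 13 were above the array median in every TKO array and 4 in every control array. In TKO lenses 1, and in control lenses 2, of the 16 were above the array median in no array. Pigment cell markers, 9 of 9 on the array, summed to 11.1 to 12.1 in TKO and 9.62 to 10.4 in control lenses (exact adjusted p = 0.0317), and 6 of the 7 tested were called higher. The macrophage markers summed to 9.91 to 10.9 in TKO and 9.11 to 10.3 in control lenses, which did not pass (exact adjusted p = 0.106), while 4 of the 9 tested were called higher, 0 lower, with a median log2 difference of 0.88. The sum of the 12 periocular markers on the array, 9.62 to 10.7 in TKO and 9.08 to 9.48 in control lenses (exact adjusted p = 0.0317), had Optc as its brightest member, which rose by 2.47 ± 0.41. Of the 6 periocular markers tested Foxc1 fell by 0.50 ± 0.08, 4 were not called, and the median log2 difference was 0.01. Lens epithelium markers moved both ways: of 9 tested, 5 fell, among them Pdgfra with a difference of -2.73 ± 0.44 and Cdh1 with one of -1.94 ± 0.24, and 3 rose, Krt18 by 1.61 ± 0.16, Ccnd1 by 0.70 ± 0.16 and Pax6 by 0.41 ± 0.09. These markers are named after their values were seen. Their sum, 14.6 to 14.7 in TKO and 14.7 to 14.8 in control lenses (exact adjusted p = 0.0454), had Cryab as its brightest member, which was not called (-0.12 ± 0.05). The 5′ minus 3′ difference of the Gapdh control probe sets, a measure of RNA integrity, averaged 0.177 in TKO and -0.0025 in control lenses (exact adjusted p = 0.0317). That of the beta-actin control probe sets averaged -0.82 in TKO and -0.97 in control lenses (exact adjusted p = 0.0454). Both were higher in TKO, with relatively more 5′ signal.

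In these bulk samples, fewer cells of a type and less RNA per cell cannot be told apart. With the retina markers as a covariate, 8 of 35 antioxidant genes (22.9%) were called at P0, against 7.91% of all genes, and 7 of them were among the 20: Gpx7, Gsta4, Srxn1, Txn1, Glrx and Nqo1 higher and Cat lower. Gstm2 joined them, at 1.25 ± 0.33. Under that covariate Glrx differed by 1.23 ± 0.22 (limma adjusted p = 0.0184), Gpx7 by 1.45 ± 0.28 and Cat by -0.64 ± 0.14, while Mgst1, at 1.38 ± 0.40, had a limma adjusted p of 0.0579 and Hmox1, at 0.35 ± 0.23, one of 0.358. The 13 calls that were lost kept their sign, with differences 0.698 to 1.41 times and standard errors 1.69 to 1.81 times those without the covariate. The covariate, the mean log2 level of the retina markers, was 6.28 to 7.38 in TKO and 4.62 to 5.996 in control P0 lenses. Because the groups did not overlap in it, retina content and genotype cannot be told apart by this fit, whether a call was kept or lost. The part of the pigment cell, macrophage and lens epithelium markers, of Optc and of RNA integrity in these results was not tested.

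**Figure D4:**
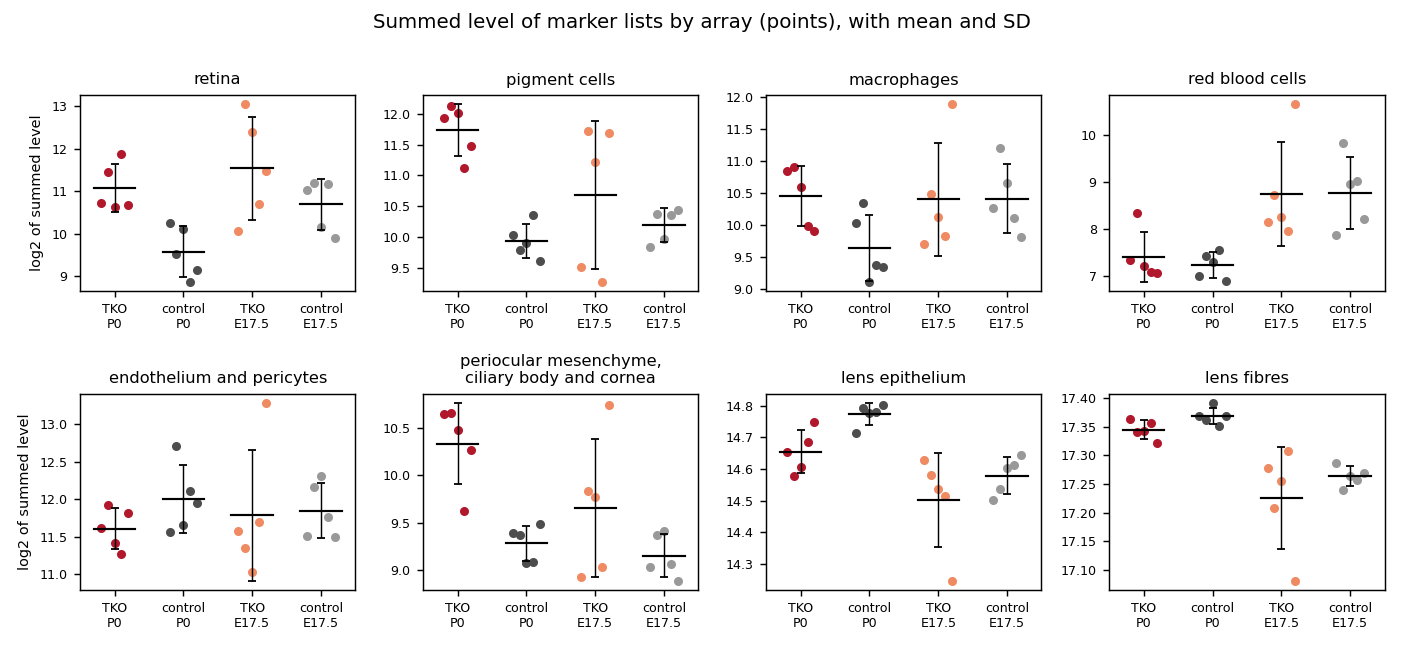
Log2 of the summed level of each of 8 marker lists (y axis) in each array (points), with mean and SD (bars, n = 5), for TKO P0, control P0, TKO E17.5 and control E17.5 lenses. At P0 the retina, pigment cell and periocular sums of the 5 TKO arrays lie above those of the 5 control arrays, and the lens fibre sums lie between 17.3 and 17.4 in both.

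At E17.5, 2 of 35 antioxidant genes (5.71%) were called, against 2.89% of all genes tested (1.59% higher, 1.31% lower). The median log2 difference was -0.01 over the 35 genes and -0.03 over all genes tested. Hmox1 read 12.11, 11.54, 11.63, 11.43 and 11.93 in TKO lenses, against 11.39, 11.09, 11.13, 10.89 and 11.06 in control lenses. All TKO arrays were above all controls, and it rose by 0.61 ± 0.14 (limma adjusted p = 0.0441), a call lost in 11 of 21 alternatives with adjusted p from 0.00472 to 0.109. Txnrd2, mitochondrial thioredoxin reductase, read 7.31, 7.24, 7.23, 7.37 and 7.25 in TKO lenses, against 7.72, 7.62, 7.57, 7.64 and 7.63 in control lenses. All TKO arrays were below all controls, and it fell by 0.36 ± 0.06 (limma adjusted p = 0.016), while its 3 other probe sets differed by -0.39, -0.03 and -0.01 and the call was lost in 5 of 21 alternatives. Cat and Keap1 also had every TKO array below every control, at -0.32 ± 0.09 (limma adjusted p = 0.0692) and -0.32 ± 0.10 (limma adjusted p = 0.0839). The other Cat probe set differed by -0.28, but the other Keap1 probe set went the other way, at 0.18. In all, 1 gene lay above and 3 below without overlap, where 4% and 5.95% of all genes did.

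The TKO E17.5 arrays were uneven in several genes that rose at P0. Glrx read 5.87, 7.33, 7.12, 6.01 and 7.31 in TKO replicates 24 to 28, against 5.76, 6.22, 5.83, 6.21 and 6.16 in control lenses. Replicates 25, 26 and 28 lay above all controls and replicates 24 and 27 within them. The same 3 arrays were above all controls and the same 2 within or below the control range in Gpx7 (5.88, 7.04, 6.70, 5.68 and 7.44 in TKO, against 5.88 to 6.32 in control lenses) and Mgst1 (7.94, 9.21, 9.22, 7.88 and 9.76 in TKO, against 7.80 to 8.40 in control lenses). Gstt1 followed with 5.23, 6.05, 5.90, 5.16 and 6.94 in TKO, against 5.28 to 5.61 in control lenses. The differences were 0.69 ± 0.29 for Glrx, 0.43 ± 0.30 for Gpx7, 0.71 ± 0.34 for Mgst1 and 0.42 ± 0.28 for Gstt1, and none was called. The retina marker sums of these arrays were 10.1, 13.05, 12.4, 10.7 and 11.5, and the pigment cell sums were 9.52, 11.7, 11.2, 9.27 and 11.7. The periocular sums were 8.93, 9.83, 9.76, 9.03 and 10.7. Replicates 24 and 27 were the lowest of the 5 in all 3 lists, and the part of these markers was not tested array by array. Replicate 28 was the highest in endothelium and pericyte markers, at 13.3 against 11.03 to 11.7 in the other TKO E17.5 arrays, and the lowest in lens fibre markers, at 17.1 against 17.2 to 17.3. The 5′ minus 3′ Gapdh difference averaged 0.163 in TKO and -0.036 in control E17.5 lenses (exact permutation test, adjusted p = 0.0317). That of beta-actin averaged -0.80 in TKO and -0.93 in control lenses, which did not pass (exact adjusted p = 0.143). The part of RNA integrity was not tested. With replicates 24 and 27 left out, 15 of 35 antioxidant genes (42.9%) were called at E17.5, against 24.9% of all genes, 9 higher (Gpx3, Gpx7, Gsta4, Gstm2, Gstt1, Mgst1, Txn1, Glrx and Hmox1) and 6 lower (Txnrd2, Msra, Cat, Nfe2l2, Keap1 and Hmox2). Leaving out these 2 arrays was chosen with their values known.

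Of the 20 genes called at P0, 19 had a difference of the same sign at E17.5, in arrays that share no sample with P0. Of all 4700 genes called at P0, 90.2% kept their sign at E17.5, so this is near the background. Srxn1 was the exception, at -0.01 ± 0.11. The difference between the TKO effects at P0 and E17.5 was called in 0 of 35 antioxidant genes, where 0.177% of all genes tested were called (0.0337% higher, 0.143% lower). With array weights 8 of the 35 (22.9%) were called, where 21.8% of all genes were. The smallest adjusted p was that of Srxn1, whose TKO effect was 0.51 ± 0.14 larger at P0 (limma adjusted p = 0.124). For Glrx the difference was 0.68 ± 0.34, with a 95% interval of -0.03 to 1.39, and for Gstm1 -0.57 ± 0.25, with one of -1.09 to -0.06.

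Between the stages, 3 antioxidant genes were called in TKO lenses (14.6% of all genes tested were) and 17 in control lenses (37.4% of all). In TKO lenses Hmox1 rose (5.8% of all genes did) and Nfe2l2 and Txn1 fell (8.77% of all). Without overlap, 2 genes were above and 2 below in TKO lenses, where 4.73% and 7.02% of all genes were. In control lenses 2 genes rose (12.5% of all genes did), Hmox1 and Gclc, and 15 fell (24.9% of all). The median log2 change in control lenses was -0.10 over the 35 genes and -0.04 over all genes tested. The control lenses had 1 gene without overlap above and 8 below, where 7.78% and 17.2% of all genes did so. Cell type markers moved in the same comparison of control lenses. Of those tested, 5 of 14 retina, 3 of 9 macrophage and 2 of 2 red blood cell markers fell, with median log2 changes of -0.54, -0.80 and -1.57, and 10 of 13 lens fibre markers rose, with a median of 0.18. In TKO lenses 1 of the 14 retina markers and 1 of the 13 lens fibre markers rose, and 1 of the 2 red blood cell and 3 of the 9 lens epithelium markers fell. Their part in the stage results was not tested beyond the retina covariate, with which 11 antioxidant genes were called in control lenses (29.9% of all genes) and 3 in TKO lenses (17% of all). With quantile normalization the split in control lenses was 4 higher and 9 lower (37.1% of the 35 genes, against 38% of all genes called). In TKO lenses it was 2 higher and 0 lower (5.71%, against 11% of all genes called).

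**Figure D5:**
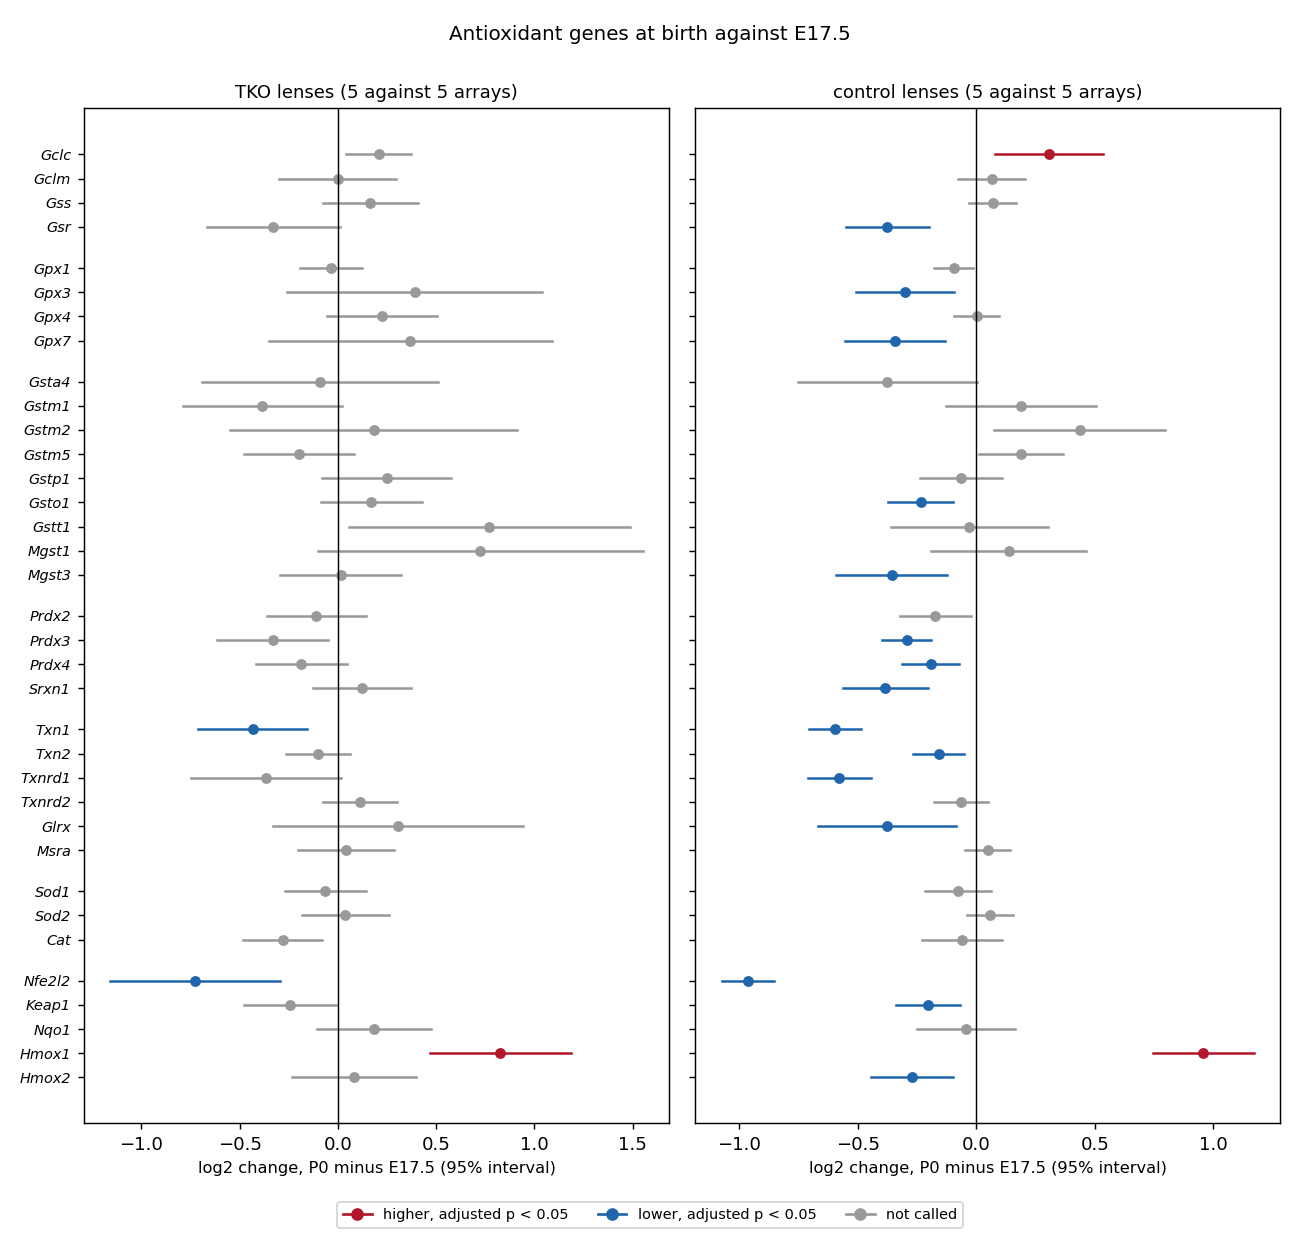
Log2 difference between P0 and E17.5 lenses (x axis, with the 95% interval of the limma fit) for the 35 tested genes (y axis, grouped by role), in TKO lenses on the left and control lenses on the right, 5 arrays against 5. Hmox1 is called higher and Nfe2l2 and Txn1 lower in both, and 14 further genes are called in control lenses.

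Nfe2l2 fell with stage in both genotypes. In control lenses it read 7.56, 7.46, 7.40, 7.62 and 7.40 at P0, against 8.42, 8.49, 8.44, 8.45 and 8.47 at E17.5. The groups were far apart and tight, with a difference of -0.96 ± 0.05 (limma adjusted p = 3.54e-06). A second probe set, above the array median in 0 of 20 arrays, read the other way, 4.50 at P0 and 4.05 at E17.5 on average, and with the mean of both probe sets the difference was -0.26. In TKO lenses it read 7.98, 7.64, 7.85, 6.93 and 7.77 at P0, against 8.51, 8.15, 8.27, 8.77 and 8.10 at E17.5. The groups did not overlap there either, and the difference was -0.73 ± 0.20 (limma adjusted p = 0.0341), a call lost in 10 of 21 alternatives. Keap1 fell by 0.20 ± 0.06 in control lenses (limma adjusted p = 0.0243), a call lost in 7 of 20 alternatives.

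Hmox1 rose with stage in both genotypes, by 0.83 ± 0.16 in TKO (limma adjusted p = 0.0135) and 0.96 ± 0.10 in control lenses (limma adjusted p = 9.52e-05). Every P0 array was above every E17.5 array of its genotype. Txn1 fell by 0.43 ± 0.13 in TKO (limma adjusted p = 0.0432, lost in 8 of 21 alternatives) and by 0.60 ± 0.05 in control lenses (limma adjusted p = 4.64e-05). A dimmer Txn1 probe set, above the array median in 19 arrays, read the other way. It averaged 5.80 at P0 and 5.33 at E17.5 in TKO lenses, and 5.87 and 5.71 in control lenses. Txnrd1, the cytosolic reductase that recharges Txn1, differed by -0.37 ± 0.17 in TKO lenses and was not called. In control lenses it read 8.67, 8.74, 8.67, 8.65 and 8.80 at P0, against 9.18, 9.33, 9.16, 9.45 and 9.30 at E17.5. All P0 arrays were below all E17.5 arrays, and it fell by 0.58 ± 0.06 (limma adjusted p = 9.97e-05). With the highest-variance probe set the difference was -0.22 and the call was lost (limma adjusted p = 0.208).

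Glutathione reductase Gsr, Srxn1 and Prdx3 also fell in control lenses without overlap. Gsr differed by -0.33 ± 0.15 in TKO and -0.37 ± 0.08 in control lenses (limma adjusted p = 0.00421 in control). Srxn1 differed by 0.12 ± 0.11 in TKO and -0.38 ± 0.08 in control lenses (limma adjusted p = 0.00421 in control). Prdx3 differed by -0.33 ± 0.13 in TKO and -0.29 ± 0.05 in control lenses (limma adjusted p = 0.000891 in control). The remaining falls in control lenses, in Gsto1, Gpx3, Gpx7, Prdx4, Hmox2, Mgst3, Txn2 and Glrx, were of 0.16 to 0.38. Of these calls, that of Glrx was lost in 10 of 19 alternatives, Txn2 in 9 of 20, Gpx3 in 7 of 20, and the other 5 in 1 to 4. Gclc rose by 0.31 ± 0.10 (limma adjusted p = 0.0382), a call lost in 7 of 20. Gclm, Gss, Gpx1, Gstm2 and Sod2 were called in none of the comparisons, though Sod2, read from another probe set, fell by 0.36 in control lenses (limma adjusted p = 0.00241). Gss, read from its other probe set, was called higher in TKO than in control lenses at P0, by 0.24. The control P0 arrays enter both this comparison and that of TKO with control lenses at P0. A gene called in one genotype only is not shown to differ between genotypes, and the test of that difference called none.

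Of 110 further genes of these pathways, 103 were on the array and 88 were tested, and at P0 24 (27.3%) were higher and 24 (27.3%) lower in TKO, where 20.2% and 19.4% of all genes were. The same background shares apply to each list that follows. Among 16 tested genes of glutathione supply and turnover 3 rose and 6 fell. Cth, which makes cysteine for glutathione, rose by 0.995 ± 0.22 (limma adjusted p = 0.00477), and Abcc4, an exporter, fell by 0.88 ± 0.17. The level of Cth was low, on average 5.36 in TKO and 4.36 in control lenses, the latter below every array median. Among 22 other thioredoxin and thiol repair genes 7 rose and 5 fell. Txnip, which binds and inhibits thioredoxin, read 9.83, 9.34, 9.07, 8.42 and 8.90 in TKO P0 lenses, against 7.62, 7.78, 7.46, 7.13 and 7.52 in control P0 lenses. The groups did not overlap, with a difference of 1.61 ± 0.22 (limma adjusted p = 0.000491).

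Among 13 further peroxidase, transferase and glyoxalase genes 2 rose, Gstt2 by 0.91 ± 0.17 and Glo1, which detoxifies methylglyoxal with glutathione, by 0.28 ± 0.07, and 4 fell. Of 15 genes of NADPH supply 4 rose and 5 fell, among them the folate enzyme Mthfd1 at 0.47 ± 0.07 and the mitochondrial transhydrogenase Nnt at -0.45 ± 0.09. Of 22 Nrf2 partners and other Nrf2 targets 8 rose and 4 fell. Sqstm1, an autophagy receptor that binds Keap1, rose by 0.85 ± 0.20 (limma adjusted p = 0.00643), and Mafg, a small Maf partner of Nrf2, fell by 0.37 ± 0.07 (limma adjusted p = 0.00329).

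At E17.5, 1 of the 88 genes (1.14%) was higher and 3 (3.41%) lower, where 1.59% and 1.31% of all genes were. Akr1b8, an aldo-keto reductase, read 7.18, 6.74, 6.62, 7.11 and 7.26 in TKO lenses, against 8.09, 8.05, 8.003, 7.98 and 7.93 in control lenses. Again no array overlapped, and it fell by 1.03 ± 0.12 (limma adjusted p = 0.00347). Glo1 rose by 0.33 ± 0.07 (limma adjusted p = 0.04), and Gstm3 and the amino acid transporter Slc1a4 fell by 0.34 ± 0.08 and 0.50 ± 0.12.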

How the data were processed

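Lens RNA was measured in 20 samples, 4 groups of 5 arrays. The deposited values are log2 expression, as their range of 1.72 to 15.0 shows, and no source used here says how the authors corrected background or normalized the arrays. Values were used as deposited. A platform annotation named 1 gene for 34945 of 45101 probe sets. Where a gene had several, the probe set highest on average over 20 arrays stood for it, and genes above the array median in at least 5 arrays were tested.

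Each comparison was fitted with limma 3.58.1 (R 4.3.3, lmFit and eBayes, two-sided) on the 2 groups compared, since the spread differs between groups, and the difference of effects on all 20 arrays. Benjamini-Hochberg adjustment ran over 11859 genes. Simulated data were used to test the fit. P-values measure the spread between mice, whose litters and array batches the labels do not give. The number of arrays limits the precision. All 40 genes may be named. Of each pathway list the rule takes up to 3 risen and 3 fallen genes by adjusted p in each TKO minus control comparison, and of those a selection is given. The genes and lists were chosen with earlier results of these data known. Alternatives covered normalization, filter, choice of probe set, array weights, an intensity trend, the samples fitted, a retina marker covariate and single arrays left out.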

Additional observations from a re-analysis of the deposited data

Results flagged for a closer look

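In 9 of 144 groups of 5 arrays tested, 1 array stood apart from the other 4, by a gap to the nearest array of over 0.71 of the group's range (Dixon's criterion), and chance alone marks about 1 group in 20. The value given is that ratio. Control P0 replicate 1 was the array in 4 of them: high for Gclc (0.81) and low for Gclm (0.874), Gsta4 (0.809) and Gstm1 (0.72). Among TKO P0 arrays, replicate 17 was high for Gpx1 (0.75), replicate 21 high for Mgst3 (0.811) and replicate 22 high for Prdx4 (0.885). Control P0 replicate 8 was high for Prdx2 (0.864), and control E17.5 replicate 11 was high for Prdx4 (0.759). Gsta4 and Gstm1 were called at P0 with each array left out in turn.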

How the results depend on the processing

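At P0, 20 of 35 antioxidant genes were called between TKO and control lenses, where 39.6% of all genes were. With a retina marker covariate the count was 8 (7.91% of all genes), and with any 1 array left out 17 to 21 (31% to 42.8% of all genes). With the stricter filter it was 15 of 30, where 49.4% of all genes were called. Gsta4 and Cat were called in every alternative run. Gpx7, Srxn1, Glrx and Nqo1 were called in every alternative that tested them. They did not pass the stricter filter, and Srxn1 was also not tested with the highest-variance probe set. Prdx2 turned to -0.0220 with the highest-variance probe set, and Sod1 to -0.0224 with the mean of probe sets, while Gsr, not called at -0.01, was called at 0.32 with the highest-variance probe set. Gss and Txnrd1, not called in the main fit, were called higher with the highest-variance probe set and with the mean of probe sets. At E17.5 the count of 2 (2.89% of all genes) became 1 with quantile normalization, median centring, the mean of probe sets or the retina covariate. These 4 settings called 2.84%, 1.66%, 4.24% and 0.97% of all genes. The count was 5 with all 20 arrays in 1 fit, 14 with array weights, and 15 without replicates 24 and 27 (24.9% of all genes). With 1 array left out it was 0 to 5, where 0.413% to 9.52% of all genes were called. It was 5 without TKO replicate 27 (9.52% of all genes). It was 0 without TKO replicate 26 or control replicate 11, 13 or 15 (0.413% to 0.565%). It was 1 without TKO replicate 24 or 25 or control replicate 10 or 12 (0.599% to 1.95%). For the stage change in TKO lenses the count of 3 (14.6% of all genes) became 1 with the mean of probe sets (13.6% of all genes). The count was 8 with all 20 arrays and 16 with array weights. With 1 array left out it was 1 to 7, where 3.71% to 22.9% of all genes were called. It was 7 without E17.5 replicate 28 (22.9% of all genes). It was 1 without P0 replicate 17, 18 or 19 or E17.5 replicate 25 or 26 (3.71% to 6.26%). With the mean of probe sets Txn1 turned to 0.0212 and Nfe2l2 to 0.0141, and a dim second probe set enters that mean in both. In control lenses the count of 17 (37.4% of all genes) became 8 with all 20 arrays and 11 with the retina covariate (29.9% of all genes). With 1 array left out it was 13 to 18 (30.9% to 37.5% of all genes). Sod2, not called at 0.06 in control lenses, was called at -0.36 with the highest-variance probe set. The difference of effects, 0 calls, gave 8 with array weights, where 21.8% of all genes were called. Array weights called 31% of all genes at E17.5 and 50.3% for the stage change in TKO lenses, and the fit of all 20 arrays 13%, 33.2% and, for the stage change in control lenses, 17.3%. Of 3850 values of single genes under an alternative, 3613 kept their side of the threshold, 163 of them with a changed sign and no call, 136 lost a call, 95 gained one and 6 turned as given. The cause of the other changes was not tested. No paired analysis was possible because the groups share no replicate numbers. Over all genes, 343 calls at E17.5 became 115 with the retina covariate and 3681 with array weights, and 4700 at P0 became 938 with the covariate.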
